A study of Homo sapiens with 27 samples.

Results

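The interleukin-1 family was followed through 10 genes in MCF10A cells, an established non-tumorigenic human mammary epithelial line: the ligands and antagonists IL1A, IL1B, IL1RN, IL18, IL33, IL36G and IL36RN, and the receptor genes IL1R1, IL1R2 and IL1RAP. They were taken by symbol from a table of 36536 genes, and each had 1 row in it. RNA-seq libraries came from 9 groups of 3, 27 in all. Cells were grown with epidermal growth factor (EGF) at 20 ng/ml, held for 18 h without growth factors, and then treated for 24 h. The treatments were EGF, OSM (oncostatin M, a relative of interleukin-6) and TGFB (transforming growth factor beta), all at 10 ng/ml, given singly, in each pair and all 3 together. Vehicle cells received phosphate-buffered saline (PBS) for the same 24 h, and T0 cells were collected at 0 h, so every group had passed through the growth-factor-free period. Nothing in the labels says that the 3 libraries of a group came from separate cultures, so the p-values measure only the spread between these libraries, which may be technical. The series asks whether combined signals act on gene expression as the sum of single signals.

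Interleukin-1 alpha and beta bind the receptor IL1R1, which then recruits the accessory chain IL1RAP and signals through MYD88 and IRAK kinases to NF-kB. The receptor antagonist encoded by IL1RN occupies IL1R1 without recruiting IL1RAP, and the decoy receptor IL1R2 binds ligand without signalling. Epithelial cells are known to store interleukin-1 alpha, interleukin-18 and interleukin-33 and to release them on damage. Interleukin-33 acts through the receptor IL1RL1 (ST2) with IL1RAP, and interleukin-36 gamma, which IL36RN antagonizes, acts through IL1RL2 with the same accessory chain.

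Of the 10 genes, 7 lie on chromosome 2 of GRCh38. IL1A (ENSG00000115008, chr2:112773925-112784493, minus strand), IL1B (ENSG00000125538, chr2:112829751-112836816, minus), IL36G (ENSG00000136688, chr2:112973203-112985658, plus), IL36RN (ENSG00000136695, chr2:113058638-113065382, plus) and IL1RN (ENSG00000136689, chr2:113099315-113134016, plus) form one cluster. IL1R2 (ENSG00000115590, chr2:101991960-102028544, plus) and IL1R1 (ENSG00000115594, chr2:102064544-102179874, plus) are neighbours in another. IL1RAP (ENSG00000196083) lies at chr3:190514051-190659750 on the plus strand, IL33 (ENSG00000137033) at chr9:6215786-6257983 on the plus strand and IL18 (ENSG00000150782) at chr11:112143253-112164096 on the minus strand. Each span is the whole gene, exons and introns together, in GENCODE v44. IL1A and IL1B are separated by 45.3 kb and did not follow one pattern across the groups, and IL1RN, the antagonist of both, moved opposite to IL1A. Their promoters, the 250 bases before the RefSeq start on GRCh38.p14, are shown for that reason, 5′ to 3′ on the gene's strand. The windows are chr2:112784494-112784743 for IL1A, chr2:112836780-112837029 for IL1B and chr2:113117721-113117970 for IL1RN. The RefSeq starts of IL1B and IL1RN lie inside the GENCODE span, so the IL1B window overlaps the gene at its 3′ end and the IL1RN window lies within it. Capitals mark a match to 1 of the motifs searched.
IL1A: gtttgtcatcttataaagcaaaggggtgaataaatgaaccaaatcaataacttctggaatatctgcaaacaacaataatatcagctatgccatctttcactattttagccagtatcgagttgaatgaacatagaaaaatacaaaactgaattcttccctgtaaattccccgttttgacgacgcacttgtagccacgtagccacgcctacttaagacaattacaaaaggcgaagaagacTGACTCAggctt
IL1B: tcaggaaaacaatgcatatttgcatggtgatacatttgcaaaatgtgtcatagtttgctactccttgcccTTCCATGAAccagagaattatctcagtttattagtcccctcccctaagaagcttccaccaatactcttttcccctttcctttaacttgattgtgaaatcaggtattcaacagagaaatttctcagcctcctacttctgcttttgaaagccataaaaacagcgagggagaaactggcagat
IL1RN: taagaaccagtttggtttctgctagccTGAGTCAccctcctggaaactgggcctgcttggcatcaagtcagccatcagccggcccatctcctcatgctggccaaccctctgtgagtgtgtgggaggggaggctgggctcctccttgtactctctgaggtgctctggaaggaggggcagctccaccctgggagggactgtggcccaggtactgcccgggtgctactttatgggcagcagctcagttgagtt

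Both strands of each window were searched for the AP-1 motif TGANTCA, the STAT palindrome TTCNNNGAA and the NF-kB motif. The AP-1 letters occurred once in the IL1A promoter, 12 to 6 bases before the start, and once in the IL1RN promoter, 223 to 217 bases before it. The STAT letters occurred once in the IL1B promoter, 180 to 172 bases before the start. No match to the other motifs was present in these 3 windows. The 250-base windows of IL33, IL36G, IL36RN, IL1R1, IL1R2 and IL1RAP held none of the 3 motifs. Those of IL36G, IL1R1 and IL1R2 lie within the GENCODE span of the gene, and other starts of a gene were not searched. Windows were available for 9 of the 10 genes, without IL18. Of 35116 RefSeq promoters of the same length, 6.57% held the AP-1 letters, 6.57% the STAT letters and 5.21% the NF-kB motif. A match describes letters in the window and not a bound site.

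The 27 libraries held between 30.1 M and 52.9 M counts each (M for mega; median 39.5 M). Levels below are counts per M counts (CPM), scaled by TMM factors, and at these totals the spread between libraries exceeded counting error. Of the 10 genes, 8 passed the filter on low counts and were tested among 15575 genes, while IL36G and IL36RN did not pass. IL33 and IL1R2 passed only through groups in which they were high, so a difference between groups was a condition for testing them. All 8 epithelial markers (KRT5, KRT14, KRT17, TP63, CDH1, EPCAM, KRT8, KRT18) exceeded 1 CPM in every group. Of 6 leukocyte markers CD14 and CD68 exceeded 1 CPM, and the summed list ran from 26.1 to 29.8 CPM with EGF, 54.4 to 61.4 with PBS and 96.2 to 119 with OSM. By library, CD14 ran from 1.70 to 79.3 CPM and CD68 from 20.2 to 50.4 CPM. The other leukocyte markers of the list, PTPRC, LYZ, CD3E and MS4A1, stayed at or below 0.225 CPM in every library. Of 5 fibroblast markers COL1A1 and DCN exceeded 1 CPM, with a summed level from 13.0 CPM with EGF+OSM to 214 CPM with TGFB. PDGFRB reached 1.04 CPM in its highest library, while COL1A2 and LUM stayed at or below 0.453 CPM. Of 5 endothelial markers 0 to 3 exceeded 1 CPM, with a summed level from 1.27 CPM with EGF+TGFB to 35.3 CPM in PBS. KDR reached 31.3 CPM, VWF 3.52 CPM and PECAM1 2.06 CPM in their highest library. CDH5 stayed at or below 0.144 CPM and TEK at or below 0.685 CPM. Whether the genes behind these sums have a part in the results below was not tested. In bulk RNA, fewer cells expressing a gene and less RNA per cell cannot be told apart. OSM replicate 3 stood apart from the other 2 OSM libraries on the first principal component, and the IL1A values that move with it are given with and without it. For the other tested genes, the OSM log2 fold changes without it were -0.82 (IL1B), -2.43 (IL1RN), -1.75 (IL18), 5.31 (IL33), 0.73 (IL1R1), 4.59 (IL1R2) and 3.03 (IL1RAP), all called.

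**Figure D1:**
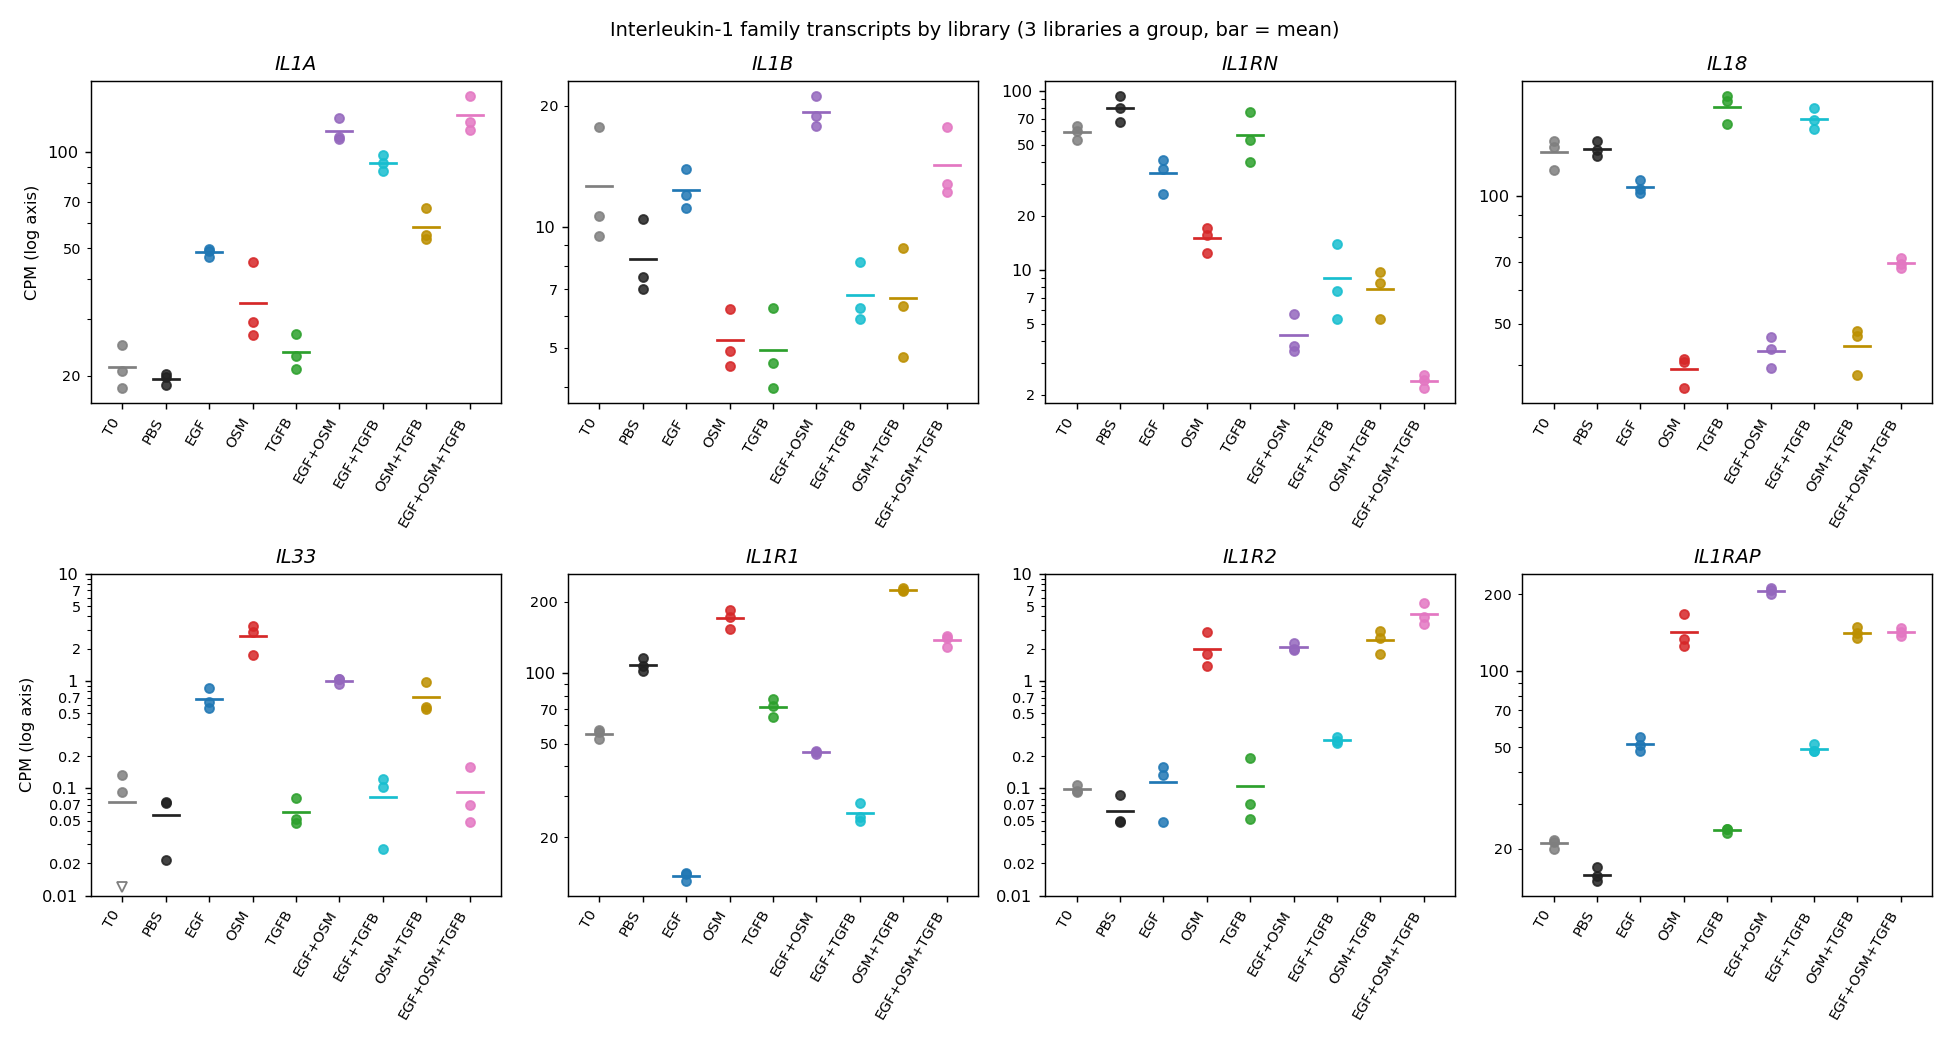
Levels of the 8 tested genes in each of 27 libraries, in CPM on a log axis that differs between panels; points are libraries, bars are group means, and the open triangle is a library with 0 counts drawn at the lower edge. By mean level, IL1A was highest and IL1RN lowest in the groups given several ligands, and IL1R1 was lowest with EGF.

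Against PBS, EGF changed 7 of the 8 tested genes, where 73.5% of all tested genes were called. It raised 4 (34.9% of all genes were called higher) and lowered 3 (38.6% lower). OSM changed 8 (63.4% of all genes), raising 5 (33.5%) and lowering 3 (29.8%), and TGFB changed 4 (35.6%), raising 2 (19.9%) and lowering 2 (15.8%). EGF+OSM changed 8 (77.2%), raising 5 (37.6%) and lowering 3 (39.6%). EGF+TGFB changed 6 (73.7%), raising 4 (36.2%) and lowering 2 (37.5%). OSM+TGFB changed 7 (66.0%), raising 5 (34.2%) and lowering 2 (31.8%). All 3 ligands changed 7 (74.4%), raising 5 (37.7%) and lowering 2 (36.7%). With so many genes called throughout the transcriptome and only 8 genes counted, no result is read from these counts. Over the 6 tested genes other than IL33 and IL1R2, which had to differ to be tested, the median absolute log2 fold change was 1.26 with EGF, against 0.59 over all tested genes. It was 1.25 with OSM, against 0.41, and 0.55 with TGFB, against 0.22. With EGF+OSM it was 2.08, against 0.69. With IL33 and IL1R2 included it was 2.07 with OSM and 3.14 with EGF+OSM. The members were chosen with earlier results of these data known, so a larger median than over all genes may follow from that choice. No result is read from these medians either. All comparisons against PBS share the same 3 PBS libraries.

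**Figure D2:**
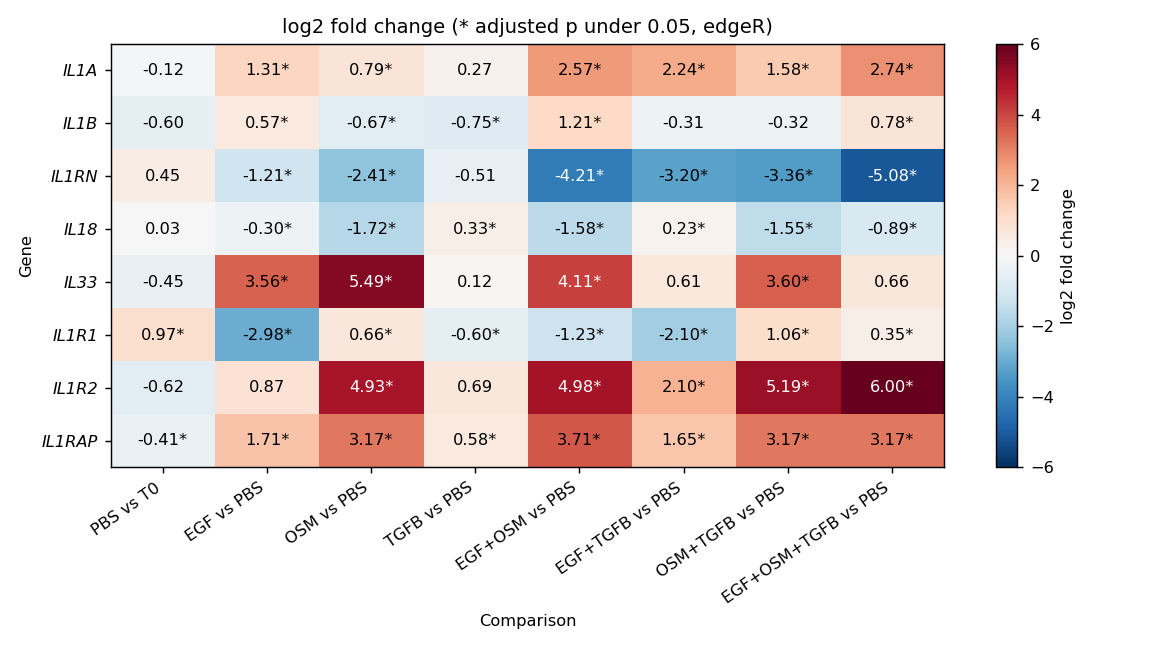
Log2 fold changes of the 8 tested genes (rows) against PBS for 7 treatments, and of PBS against T0 (columns); colour gives the size and direction, and an asterisk marks an adjusted p under 0.05. IL1RN is lower in every treatment column, from -0.51 with TGFB, which was not called, to -5.08 with all 3 ligands.

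IL1A, which encodes the cell-associated agonist interleukin-1 alpha, rose with EGF and with OSM and rose further with each pair of ligands. In PBS its 3 libraries read 18.7, 20.2 and 19.8 CPM, and in EGF 46.8, 49.0 and 49.8 CPM. In OSM they read 29.4, 26.7 and 45.4 CPM, and in TGFB 21.0, 23.0 and 26.9 CPM. The EGF, OSM and TGFB libraries all lay above PBS, and OSM replicate 3 stood well above the other OSM libraries. The log2 fold change was 1.31 ± 0.16 (SE, adjusted p = 1.62e-07) with EGF and 0.79 ± 0.16 (adjusted p = 0.000188) with OSM. Without OSM replicate 3 the OSM value was 0.52 ± 0.13 (adjusted p = 0.00162). With TGFB alone it was 0.27 ± 0.16 (adjusted p = 0.206), with a 95% interval from -0.06 to 0.61. The TGFB value was called with a replicate block (0.26, adjusted p = 0.0475) and with only the groups compared (0.27, adjusted p = 0.0227). The labels do not say what a replicate number shares.

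The combinations carried the highest IL1A levels. EGF+OSM libraries read 109.9, 112 and 128 CPM, EGF+TGFB libraries 92.2, 87.5 and 97.7 CPM, and OSM+TGFB libraries 55.1, 53.3 and 67.0 CPM. With all 3 ligands they read 124, 117 and 150.3 CPM. The last group overlapped EGF+OSM, and no other neighbouring pair among these overlapped. Against PBS the log2 fold changes were 2.57 with EGF+OSM, 2.24 with EGF+TGFB, 1.58 with OSM+TGFB and 2.74 with all 3 ligands, all called. TGFB, which by itself did not pass the test for IL1A in the main fit, raised it by a log2 fold change of 0.93 when added to EGF (adjusted p = 1.79e-05). Adding TGFB to EGF+OSM gave 0.16 (adjusted p = 0.35).

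IL1B, the gene of the secreted agonist interleukin-1 beta, rose with EGF+OSM and was lower with OSM or TGFB alone. PBS libraries read 7.50, 6.99 and 10.5 CPM, EGF libraries 11.1, 12.0 and 14.0 CPM, OSM libraries 4.50, 4.92 and 6.24 CPM, and TGFB libraries 3.97, 4.59 and 6.28 CPM. EGF+OSM libraries read 17.8, 18.8 and 21.2 CPM, and those with all 3 ligands 12.2, 12.7 and 17.8 CPM. EGF+OSM stood above every other group without overlap, although 1 library with all 3 ligands and 1 T0 library lay close beneath it. The log2 fold changes were 1.21 ± 0.24 (adjusted p = 8.35e-05) for EGF+OSM and 0.78 ± 0.24 (adjusted p = 0.00629) for all 3 ligands, and both stayed called when any library was left out. EGF+TGFB (6.27, 5.89 and 8.16 CPM) and OSM+TGFB (6.35, 4.74 and 8.86 CPM) overlapped PBS and were not called (adjusted p = 0.272 and 0.269). With a replicate block both were called lower (-0.29, adjusted p = 0.0252, and -0.33, adjusted p = 0.0146).

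The single-ligand changes of IL1B were small, and each call was lost when any 1 of several libraries was left out. With EGF the log2 fold change was 0.57 ± 0.24 (adjusted p = 0.0361), and the call was lost without PBS replicate 1 (adjusted p = 0.106), PBS replicate 2 (0.135), EGF replicate 2 (0.0575) or EGF replicate 3 (0.117). It was also lost under upper-quartile scaling (0.0593) and without the filter on low counts (0.0709). With OSM it was -0.67 ± 0.25 (adjusted p = 0.0255), lost without PBS replicate 3 (0.145), OSM replicate 1 (0.0909) or OSM replicate 2 (0.0744). With TGFB it was -0.75 ± 0.26 (adjusted p = 0.0249), lost without PBS replicate 3 (0.14), TGFB replicate 1 (0.114) or TGFB replicate 2 (0.0828). EGF, OSM and TGFB libraries did not overlap PBS in any of the 3 cases.

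IL1RN, which encodes the secreted and intracellular forms of the receptor antagonist, fell with EGF and OSM and fell to its lowest level with all 3 ligands. PBS libraries read 67.3, 80.0 and 94.0 CPM, EGF libraries 26.5, 36.7 and 41.3 CPM, and OSM libraries 12.4, 17.1 and 15.7 CPM. EGF+OSM libraries read 3.52, 5.68 and 3.74 CPM, EGF+TGFB libraries 5.33, 7.64 and 13.9 CPM, and OSM+TGFB libraries 5.31, 8.47 and 9.76 CPM. With all 3 ligands they read 2.18, 2.58 and 2.41 CPM, from 89, 74 and 77 counts. TGFB libraries read 40.0, 52.9 and 76.3 CPM, and the last was the only treated library to reach the lowest PBS library. The table counts 14 annotated IL1RN transcripts as 1 gene, so the antagonist's isoforms cannot be told apart here.

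The fall was 2.31-fold with EGF (log2 fold change -1.21 ± 0.26, adjusted p = 0.000324) and 5.33-fold with OSM (-2.41 ± 0.28, adjusted p = 2.13e-07). EGF+OSM lowered IL1RN 18.6-fold (-4.21 ± 0.32, adjusted p = 1.64e-10) and all 3 ligands 33.7-fold (-5.08 ± 0.35, adjusted p = 4.65e-11). EGF+TGFB lowered it 8.97-fold and OSM+TGFB 10.2-fold, both called. With TGFB alone the value was -0.51 ± 0.26 (adjusted p = 0.13, 95% interval -1.05 to 0.02), and without TGFB replicate 3 it was -0.79 (adjusted p = 0.0315). With a replicate block it was -0.54 (adjusted p = 0.00707). When added to EGF, TGFB lowered IL1RN by a further 3.89-fold (adjusted p = 8.35e-06). When added to OSM it gave a log2 fold change of -0.95 (adjusted p = 0.0138), a call lost without OSM replicate 2 (0.0549) or OSM+TGFB replicate 1 (0.0808).

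IL1A rose in groups where IL1RN fell, and the ratio of the 2 within a library covered a wide range. In PBS, IL1RN had 3.59 to 4.75 counts for each IL1A count, and with all 3 ligands IL1A had 45.4 to 62.3 counts for each IL1RN count. On the log2 scale the IL1RN to IL1A count ratio averaged 2.03 ± 0.20 in PBS (SD, n = 3), -0.50 ± 0.28 with EGF, -1.14 ± 0.45 with OSM and 1.21 ± 0.29 with TGFB. It averaged -4.78 ± 0.42 with EGF+OSM, -3.48 ± 0.65 with EGF+TGFB, -2.93 ± 0.39 with OSM+TGFB and -5.76 ± 0.24 with all 3 ligands. No treated group overlapped PBS, and without OSM replicate 3 the OSM mean was -0.94. The count ratio also carries the different lengths of the transcripts, so its change between groups, and not its sign, is what can be compared. The ratio of IL1RN to IL1B fell from 3.28 ± 0.20 in PBS to -2.19 ± 0.41 with EGF+OSM and -2.55 ± 0.29 with all 3 ligands, while TGFB alone (3.48 ± 0.14) overlapped PBS. The ratios were not tested and are given as a description.

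**Figure D3:**
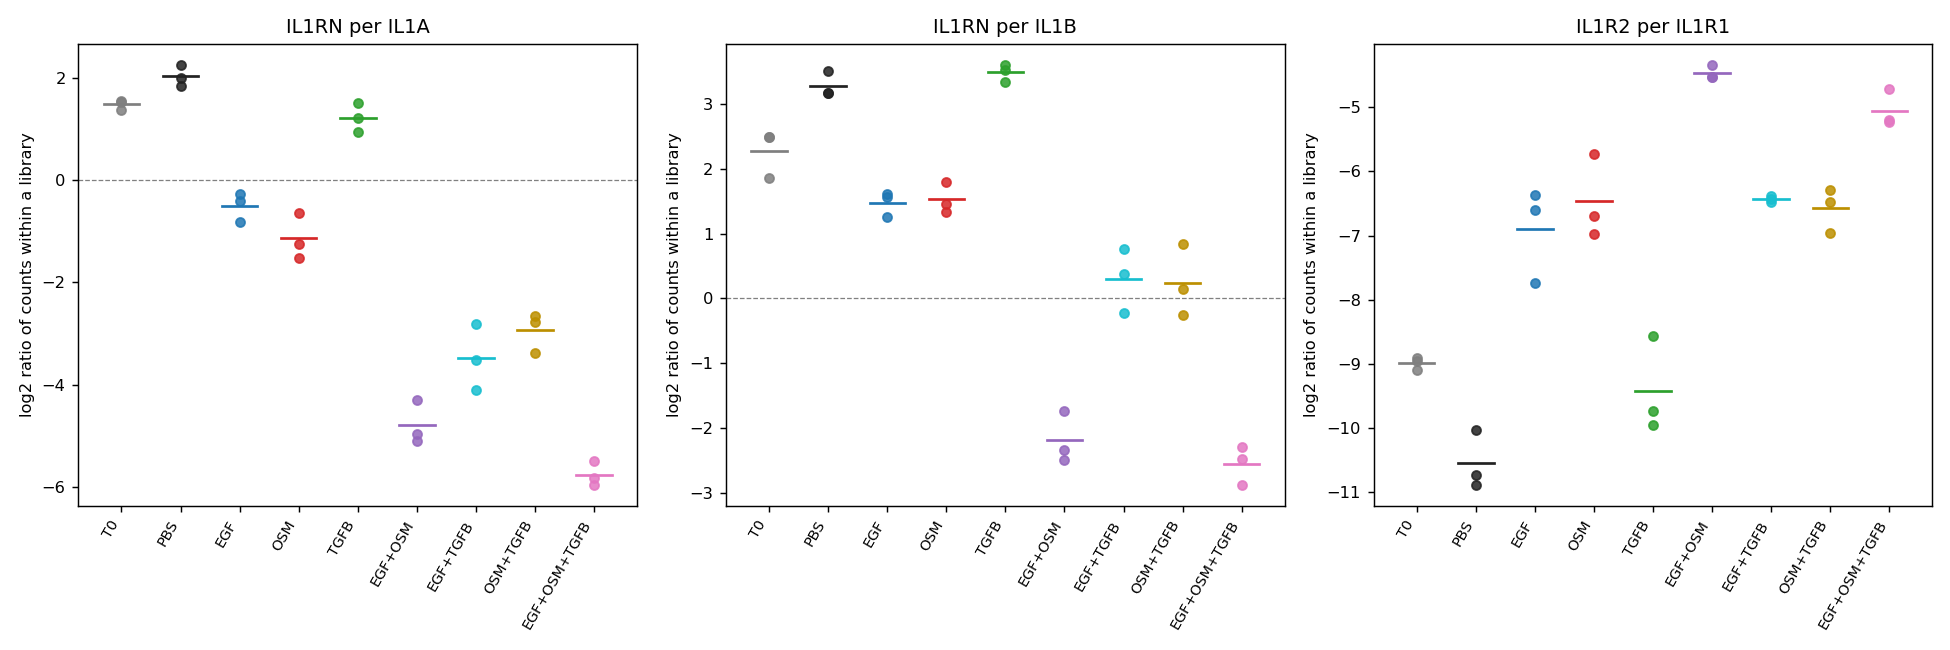
Log2 ratio of the counts of 2 genes within each library (points) with group means (bars), for IL1RN per IL1A, IL1RN per IL1B and IL1R2 per IL1R1; the dashed line marks equal counts. IL1RN per IL1A drops from a mean of 2.03 in PBS to -5.76 with all 3 ligands.

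IL18, a family member held in epithelial cells as an inactive precursor, fell with OSM and rose slightly with TGFB. PBS libraries read 124, 135 and 128 CPM, OSM libraries 35.2, 41.4 and 40.6 CPM, and TGFB libraries 147, 172 and 167 CPM. The groups did not overlap, and OSM, EGF+OSM (39.3, 46.4 and 43.6 CPM) and OSM+TGFB (37.8, 46.9 and 48.0 CPM) shared one low range. OSM lowered IL18 3.31-fold (log2 fold change -1.72 ± 0.08, adjusted p = 4.02e-15), and TGFB raised it by 0.33 ± 0.08 on the log2 scale (adjusted p = 0.00193). EGF gave -0.30 ± 0.08 (adjusted p = 0.00156). With all 3 ligands IL18 (67.8, 69.1 and 71.5 CPM) was 1.86-fold lower than in PBS (adjusted p = 3.02e-10) and lay above every other group given OSM. EGF+TGFB gave 0.23 ± 0.08 (adjusted p = 0.0113). That call was lost under upper-quartile scaling (0.14, adjusted p = 0.106) and without EGF+TGFB replicate 2 (adjusted p = 0.0631).

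IL33, a nuclear cytokine released as an alarm signal, rose from near 0 with OSM and with EGF and was lower wherever TGFB was added to them. Counts per library were 3, 1 and 3 in PBS, 101, 79 and 121 in OSM, and 25, 43 and 26 in EGF. They were 39, 40 and 41 in EGF+OSM, 35, 20 and 19 in OSM+TGFB, and 2, 2 and 3 in TGFB. In EGF+TGFB they were 1, 6 and 3, and with all 3 ligands 2, 2 and 5, which overlap PBS. Every library with OSM, EGF, EGF+OSM or OSM+TGFB lay above every library of the other groups. OSM reached 2.63 ± 0.79 CPM against 0.0566 ± 0.0304 CPM in PBS (SD, n = 3), a log2 fold change of 5.49 ± 0.51 (adjusted p = 7.86e-10). EGF reached 0.683 ± 0.157 CPM (3.56 ± 0.55, adjusted p = 2.24e-06). EGF+OSM stood below OSM alone, at -1.38 ± 0.36 (adjusted p = 0.00186). Adding TGFB gave -2.95 against EGF alone (adjusted p = 2.98e-05) and -1.89 against OSM alone (adjusted p = 0.000143). Adding it to EGF+OSM lowered IL33 11.0-fold (adjusted p = 2.38e-06), to a level not distinguishable from PBS at this depth (0.66 ± 0.76, adjusted p = 0.44, 95% interval -0.90 to 2.23).

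The gene of the interleukin-33 receptor, IL1RL1, is no member of the 10 but had its highest level in the same group. It stood at 0.844 ± 0.182 CPM in PBS, 31.9 ± 7.20 CPM in OSM, 12.4 ± 3.58 CPM in EGF+OSM, 14.3 ± 1.26 CPM in OSM+TGFB and 4.16 ± 0.65 CPM with all 3 ligands (SD, n = 3). OSM raised it by 5.23 ± 0.25 on the log2 scale (adjusted p = 1.7e-14), and EGF+OSM was lower than OSM alone by a log2 fold change of -1.36 (adjusted p = 1.78e-06). Elsewhere IL1RL1 and IL33 parted. With EGF, which raised IL33, IL1RL1 was not called (0.46, adjusted p = 0.193). With all 3 ligands IL1RL1 stayed above PBS (2.29, adjusted p = 7.17e-08), where IL33 was not distinguishable from PBS. IL1RL1 and IL18R1 overlap on the same strand on chromosome 2, so reads in shared sequence could have been given to either gene.

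IL36G and IL36RN were at the limit of detection. IL36G had at most 8 counts in any library. IL36RN had at most 7 counts, with 6, 3 and 7 in T0, 0, 0 and 6 in PBS, and 0 in all libraries of EGF+OSM and of all 3 ligands. Taken as 3 counts over the 3 libraries, the limit that a count of 0 allows was 0.0251 CPM with EGF+OSM and 0.0296 CPM with all 3 ligands, for counting error only. The upper ends of the exact 95% intervals were 0.0309 and 0.0363 CPM. In a fit without the filter on low counts, over 25329 genes, neither gene passed the test against PBS in any treatment. The lowest adjusted p values were 0.0578 for IL36RN with EGF+OSM and 0.0771 with all 3 ligands.

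Against PBS, IL1R1, the signalling receptor, was lower with EGF, higher with OSM and lower with TGFB. PBS libraries read 107, 102 and 116 CPM, EGF libraries 14.1, 13.9 and 13.0 CPM, OSM libraries 173, 186 and 154 CPM, and TGFB libraries 64.9, 72.0 and 77.5 CPM. T0 libraries read 56.2, 56.9 and 52.2 CPM, so the TGFB libraries lay below PBS and above T0. No pair of the 9 groups that were neighbours in level overlapped for this gene. EGF lowered IL1R1 7.89-fold (log2 fold change -2.98 ± 0.08, adjusted p = 8.24e-20), OSM raised it by 0.66 ± 0.07 (adjusted p = 5.69e-09), and TGFB gave -0.60 ± 0.07 (adjusted p = 1.7e-07).

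In combination, OSM and TGFB each raised IL1R1 above the level seen with EGF alone. EGF+OSM libraries read 46.2, 46.5 and 45.2 CPM, EGF+TGFB libraries 28.0, 23.6 and 24.3 CPM, OSM+TGFB libraries 226, 223 and 228 CPM, and those with all 3 ligands 144, 129 and 141 CPM. OSM+TGFB was the highest group of the series for IL1R1, although TGFB alone stood below PBS. Added to EGF, TGFB raised IL1R1 by 0.88 on the log2 scale, and added to OSM by 0.40 (adjusted p = 2.33e-05). Adding OSM to EGF+TGFB raised it 5.45-fold. IL1R1 kept all 21 of its calls, out of 22 comparisons, under every alternative tried.

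IL1RAP, the accessory chain shared by the receptors for interleukin-1, interleukin-33 and interleukin-36, rose with every treatment and most with EGF+OSM. PBS libraries read 16.9, 14.9 and 15.5 CPM, EGF libraries 54.8, 48.4 and 51.2 CPM, OSM libraries 133, 125 and 168 CPM, and TGFB libraries 24.0, 22.9 and 23.9 CPM. EGF+OSM libraries read 208, 200.3 and 211 CPM, and those with all 3 ligands 147, 137 and 142 CPM. PBS was the lowest group and EGF+OSM the highest, each without overlap. The rise was 3.26-fold with EGF (adjusted p = 1.51e-15), 8.99-fold with OSM (adjusted p = 1.12e-20), 1.5-fold with TGFB (adjusted p = 3.23e-06) and 13.1-fold with EGF+OSM (adjusted p = 7.23e-22). EGF+TGFB (51.4, 48.3 and 48.4 CPM) and OSM+TGFB (141, 135 and 149 CPM) overlapped EGF alone and OSM alone. The effect of TGFB on top of EGF was -0.06 on the log2 scale, with a 95% interval from -0.21 to 0.10. On top of OSM it was -0.00, with an interval from -0.15 to 0.15. That value moved with OSM replicate 3, the highest OSM library. Without it the effect on top of OSM was 0.14 ± 0.06 (adjusted p = 0.0588), and OSM+TGFB no longer overlapped OSM alone. On top of EGF+OSM, TGFB lowered IL1RAP by a log2 fold change of -0.54 (adjusted p = 4.22e-07).

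IL1R2, the decoy receptor, was near 0 without OSM and rose in every group that received it. PBS libraries had 2, 4 and 2 counts, EGF libraries 6, 8 and 2, and TGFB libraries 2, 3 and 7. OSM libraries had 48, 80 and 107 counts, EGF+OSM libraries 84, 86 and 77, OSM+TGFB libraries 64, 87 and 100, and those with all 3 ligands 160, 98 and 170. All libraries with OSM lay above all libraries without it. The mean was 0.0617 ± 0.0213 CPM in PBS, 2.01 ± 0.79 CPM in OSM and 4.22 ± 0.99 CPM with all 3 ligands (SD, n = 3). OSM gave a log2 fold change of 4.93 ± 0.40 (adjusted p = 6.03e-11). All 3 ligands gave 67.1 times the PBS rate in pooled counts (exact 95% interval 33.7 to 156, for counting error only; adjusted p = 3.18e-13 in the edgeR fit). EGF+TGFB, with 11, 13 and 8 counts, also stood above PBS (2.10 ± 0.51, adjusted p = 0.000632). The value with all 3 ligands exceeded that with EGF+OSM by 1.02 on the log2 scale (adjusted p = 0.00123).

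Counts of the decoy stayed below those of the signalling receptor in every library. IL1R1 had 1178 to 2367 counts for each IL1R2 count in PBS, 20.3 to 23.2 with EGF+OSM and 26.4 to 37.8 with all 3 ligands. The log2 ratio of IL1R2 to IL1R1 counts averaged -10.55 ± 0.46 in PBS and -4.47 ± 0.11 with EGF+OSM (SD, n = 3). With 2 to 4 IL1R2 counts in each PBS library, the PBS ratio depends on the 0.5 counts added before the logarithm and was -9.67 with 3 counts added.

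Levels of different genes were set side by side per kb of annotated exon. In PBS, the level per length was highest for IL18 (49.6 CPM per kb), followed by IL1RN (21.5), IL1R1 (15.2), IL1A (9.70), IL1B (2.77) and IL1RAP (1.41). With all 3 ligands IL1A led at 64.7 CPM per kb, followed by IL18 (26.7), IL1R1 (19.4), IL1RAP (12.7), IL1B (4.74), IL1R2 (1.43) and IL1RN (0.64). IL1RN thus went from the second level per length among the 10 genes in PBS to the seventh, and IL1A from the fourth to the first. The exon union is longer than most single transcripts, so these levels are approximate.

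PBS and T0 cells differed in 2 of the 8 tested genes, where 35.1% of all genes were called (16.2% higher in PBS, 18.9% lower). With a replicate block 4 were called, with IL1B (-0.58, adjusted p = 9.61e-05) and IL1RN (0.43, adjusted p = 0.0259) added. What a replicate number shares is not stated in the labels, so the values below are without the block. IL1R1 was 1.96-fold higher in PBS than in T0 (56.2, 56.9 and 52.2 CPM, adjusted p = 1.71e-10). IL1RAP was lower in PBS, at a log2 fold change of -0.41 ± 0.08 against T0 libraries of 21.6, 20.0 and 21.3 CPM (adjusted p = 0.000331). IL1B read 9.47, 10.6 and 17.7 CPM in T0, and its value for PBS against T0 was -0.60 ± 0.24 (adjusted p = 0.0561). IL1RN libraries of T0 (53.1, 59.9 and 64.0 CPM) lay below those of PBS, although the difference was not called (0.45, adjusted p = 0.187), and IL1A (18.2, 20.7 and 24.9 CPM) and IL18 (135, 130.3 and 115 CPM) overlapped PBS.

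Departures from additivity were obtained by subtracting the summed log2 fold changes of the single ligands from that of their combination, with PBS as the reference. A value of 0 means that fold changes multiply. With EGF+OSM 5 of the 8 genes departed (38.7% of all genes), with EGF+TGFB 5 genes (29.8%), with OSM+TGFB 3 genes (23.3%) and with all 3 ligands 5 genes (48.0%). The 3-way term, the part that neither single ligands nor pairs account for, was called for 1 gene (3.90% of all genes). That gene was IL1A, at -1.29 ± 0.30 (adjusted p = 0.0186), and at -1.56 without OSM replicate 3 (adjusted p = 0.000292).

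IL1R1 departed upward in each combination, which held more IL1R1 than the single changes add to. The departure was 1.09 ± 0.10 in the EGF+OSM group (adjusted p = 5.01e-09), 1.48 ± 0.11 with EGF+TGFB (6.79e-10), 1.00 ± 0.10 with OSM+TGFB (9.35e-08) and 3.27 ± 0.14 for all 3 ligands (4.82e-15). IL1RAP departed downward in each, at -1.16 ± 0.11 (adjusted p = 3.28e-09), -0.64 (0.000115), -0.58 (0.000364) and -2.29 ± 0.16 (3.26e-11) in the same order. The signalling receptor and its accessory chain therefore departed in opposite directions in all 4 combinations. These are not 4 separate observations, because the departures share the PBS libraries and single-ligand libraries. The departure of all 3 ligands is also the sum of the 3 pair departures and the 3-way term.

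Among the ligands, IL33 departed most, at -4.94 ± 0.66 for EGF+OSM (adjusted p = 1.18e-06) and -8.50 ± 1.38 for all 3 ligands (adjusted p = 1.31e-05). Its departure for EGF+TGFB was -3.06 ± 1.01 (adjusted p = 0.0235), a call lost without PBS replicate 2 (0.0589), TGFB replicate 3 (0.087) or EGF+TGFB replicate 1 (0.0531). For OSM+TGFB it was -2.01 ± 0.93 (95% interval -3.92 to -0.10), which was not called after adjustment over all genes. These values rest on 7 IL33 counts over the 3 PBS libraries, and on 9 counts over those with all 3 ligands. IL33 had to differ between groups to be tested, so its place among the ligands is not read as a result. IL1B departed upward for EGF+OSM (1.31 ± 0.34, adjusted p = 0.00412). For OSM+TGFB it also departed upward (95% interval of the departure 0.34 to 1.86, adjusted p = 0.0327), a call lost without PBS replicate 3, OSM replicate 1 or 2, TGFB replicate 1 or 2, or OSM+TGFB replicate 1 or 3 (adjusted p from 0.05 to 0.113). For all 3 ligands its departure was 1.63 ± 0.49 (adjusted p = 0.00879), lost without PBS replicate 3 (0.0691). IL18 departed by 0.44 ± 0.12 for EGF+OSM (adjusted p = 0.0035) and 0.80 ± 0.16 for all 3 ligands (adjusted p = 0.000185). IL1RN departed downward for EGF+TGFB (-1.48 ± 0.39, adjusted p = 0.00675), and its values for EGF+OSM (-0.59, adjusted p = 0.287) and all 3 ligands (-0.95, adjusted p = 0.197) were not called. With a replicate block the value for all 3 ligands was called (-0.90, adjusted p = 0.0457).

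IL1A departed for EGF+TGFB at 0.66 (adjusted p = 0.0271), and leaving out PBS replicate 2 or 3, EGF replicate 1, or TGFB replicate 1 or 2 ended the call (adjusted p from 0.0511 to 0.0734). For EGF+OSM its departure was 0.48 (adjusted p = 0.0876), for OSM+TGFB 0.52 (0.0982) and for all 3 ligands 0.37 (0.355). Without OSM replicate 3 these were 0.75 (adjusted p = 0.0014), 0.79 (0.00239) and 0.64 (0.0323). With all libraries, a replicate block gave called values of 0.49 for EGF+OSM (adjusted p = 0.00546) and 0.54 for OSM+TGFB (0.00589). DESeq2 gave 0.49 (0.0447) and 0.53 (0.0413). For IL1R2 the 4 departures lay between -0.82 and 0.54, with wide intervals (for EGF+OSM from -2.12 to 0.48), and none was called (adjusted p from 0.328 to 0.725).

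**Figure D4:**
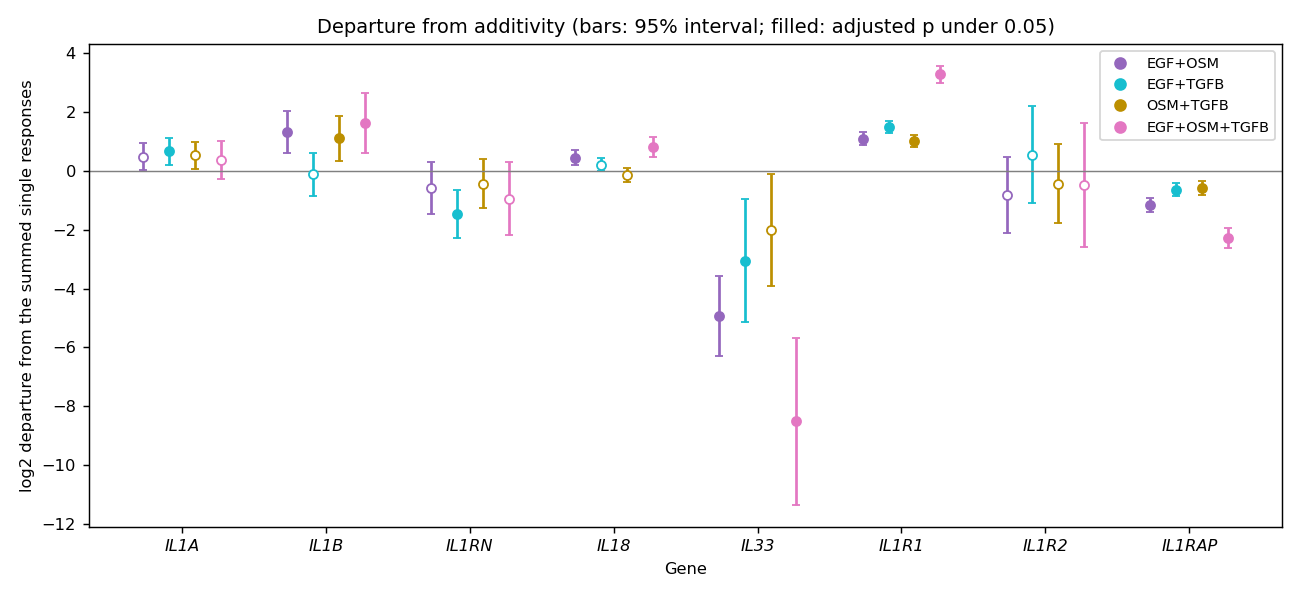
Departure of each combination from the sum of single-ligand log2 fold changes for the 8 tested genes, with 95% intervals; colours are combinations, and filled points have an adjusted p under 0.05. IL1R1 lies above 0 and IL1RAP below 0 in all 4 combinations.

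Adding OSM to EGF changed 7 of the 8 genes (34.9% of all genes were called), and adding EGF to OSM changed 6 (61.7%). Adding TGFB to EGF changed 7 (54.6%), adding EGF to TGFB 5 (69.4%), adding TGFB to OSM 4 (51.6%) and adding OSM to TGFB 7 (56.6%). Going from EGF+OSM to all 3 ligands changed 5 (61.1%), from EGF+TGFB 7 (26.4%) and from OSM+TGFB 7 (52.2%). Adding OSM to EGF+TGFB was the step with the lowest background. In it IL1A rose by 0.50 on the log2 scale (adjusted p = 0.0139), a call lost without EGF+TGFB replicate 2 (0.0574) or replicate 3 of the 3-ligand group (0.0844). IL1RN fell by 1.88 and IL1B rose by 1.08 (adjusted p = 0.00196), while IL33 did not pass the test (0.05, adjusted p = 0.972).

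Other genes of the pathway were counted in 4 lists, chosen with earlier results of these data known. Over all tested genes, 34.9% were called higher and 38.6% lower with EGF, and 33.5% and 29.8% with OSM. With TGFB the shares were 19.9% and 15.8%, and with all 3 ligands 37.7% and 36.7%. Of 16 genes that interleukin-1 is known to induce, 8 were higher and 6 lower with EGF, 9 and 5 with OSM, 7 and 2 with TGFB, and 11 and 5 with all 3 ligands. Their median log2 fold change was 0.18, 0.67, 0.00 and 2.23 in the same order, where the medians over all tested genes were -0.07, 0.00, -0.01 and 0.00. In PBS against T0, 8 of the 16 were higher and 0 lower, where 16.2% of all genes were called higher and 18.9% lower. CSF3, the granulocyte colony-stimulating factor gene, went from 0.767 ± 0.197 CPM in PBS to 14.2 ± 2.50 CPM with EGF (log2 fold change 4.19), 10.5 ± 2.95 CPM with OSM (3.75) and 62.3 ± 2.48 CPM with EGF+OSM. IL6 had 0 counts in all PBS libraries, and stood at 0.0437 CPM with EGF, 0.113 CPM with OSM, 0.274 CPM with TGFB and 14.1 ± 1.60 CPM with all 3 ligands. CSF2 had at most 1 count in a PBS library and reached 0.17 CPM with TGFB. IL6 and CSF2 passed the filter on low counts only through groups in which they were high. A difference between groups was thus a condition for testing them, and both enter the counts and medians of this list. No result is read from those counts and medians. The 6 lower with EGF were SOD2 (-2.76), NFKBIZ (-2.14), LCN2 (-1.82), BIRC3 (-1.79), NFKBIA (-1.55) and TNFAIP3 (-0.79). The 5 lower with OSM were BIRC3 (-1.13), LCN2 (-1.07), NFKBIZ (-0.78), TNFAIP3 (-0.67) and NFKBIA (-0.51), while SOD2 rose (1.17). The 2 lower with TGFB were BIRC3 (-0.78) and NFKBIZ (-0.37). Other signals also induce the genes of this list.

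Of 13 genes that act just below the receptor, 12 were tested. With EGF 3 were higher and 8 lower, with OSM 3 and 6, with TGFB 2 and 1, and with all 3 ligands 3 and 7. PELI2, a ubiquitin ligase that acts on IRAK proteins, fell with EGF from 3.28 ± 0.15 to 0.109 ± 0.038 CPM (log2 fold change -4.86), and PELI1, a related ligase, by -0.60. The kinase gene IRAK2 rose with OSM (1.01) and TGFB (0.75), and the adaptor gene MYD88 rose with both (0.50 and 0.49). In PBS against T0, 7 of the 12 were higher and 0 lower in the same test, where 16.2% of all genes were called higher and 18.9% lower.

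Of 14 genes for processing and release, 13 were tested, with 5 higher and 6 lower in EGF, 8 and 3 in OSM, and 7 and 2 with all 3 ligands. With TGFB 3 were called, all higher. NLRP3, an inflammasome sensor, rose with EGF (log2 fold change 1.86) and OSM (2.78), from 0.812 ± 0.343 CPM in PBS to 5.54 ± 1.17 CPM in OSM. The protease gene CTSS fell with EGF (-2.32). NLRP1, another sensor, rose with OSM (1.51) and TGFB (1.52), and the pore-forming gasdermin gene GSDME rose with TGFB (0.64). Of 10 other family genes only 4 passed the filter, and EGF lowered 2 of them, IL18R1 (-0.91) and SIGIRR (-0.88). OSM raised 2 and lowered 1, and the 2 that rose were IL1RL1 and IL18BP (0.74), which encodes the binding protein of interleukin-18. TGFB raised 1, IL1RL1 (0.83, adjusted p = 0.0373). With all 3 ligands 2 were higher and 1 lower. The share of all tested genes called in each comparison, given above, applies to these counts too.

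Across the 27 libraries and 12658 genes with a mean over 1 CPM, the genes whose log2 CPM was most like IL1A were ROBO4 (Pearson r = 0.979), TRAPPC3 (0.973) and CEP170 (0.972). Most like IL1RN were SULT2B1 (0.978), ARHGEF4 (0.975) and CRYBG2 (0.973), and most like IL1RAP were BTBD11 (0.980), MAP3K20 (0.977) and ADPGK (0.977). Most like IL1R1 were LAMB1 (0.978), PDZK1IP1 (0.963) and GPC6 (0.951). For IL1R2 they were TCAF2 (0.970), CPNE5 (0.969) and PPP2R2C (0.969), and for IL18 RUBCN (0.964), POU2F3 (0.950) and CDS1 (0.950). IL1B had no such close match, and its nearest genes were SMAP2 (0.839), GDAP1 (0.830) and VDAC3 (0.815). Among the 7 of the 10 genes with a mean over 1 CPM, the strongest relation was between IL1A and IL1RN (r = -0.902), together with IL1R2 and IL1RAP (r = 0.902). IL1A and IL1B, the 2 agonists, had r = 0.481. Libraries of a group share their treatment, so these values describe the 9 groups more than 27 separate points.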

How the data were processed

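Stranded polyadenylated RNA libraries were analysed from the estimated counts the authors deposited for each gene, 27 columns matched to samples by their labels. The values were whole numbers, which rounding left as they were. Per the submitters' processing notes, Trim Galore 0.4.3, cutadapt 1.10, FastQC 0.11.5, kallisto 0.46.2 and R 3.5.0 are named, with GRCh38, without their order; how transcripts were summed to genes is not given in the sources used here. Of 40487 rows, rows sharing a symbol were summed (1962 symbols had several), giving 36536 genes, and 7165 rows without a symbol kept their identifier.

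Low genes were removed with filterByExpr, leaving 15575. Library sizes were scaled by TMM (factors 0.867 to 1.12), and edgeR 4.0.16 in R 4.3.3 fitted a robust quasi-likelihood model to all 27 libraries (18 residual degrees of freedom, no replicate block, prior count 0.125). Adjusted p is Benjamini-Hochberg over all 15575 genes, called under 0.05. Standard errors are the absolute log2 fold change divided by the root of F. Count ratios had 0.5 counts added. Replicates differed by more than sampling noise, and all were kept as separate samples. The calculation for EGF against PBS was tested on simulated data in which libraries of the same replicate number shared nothing. The departures were not checked in this way. Alternatives were upper-quartile scaling, no filter, DESeq2 1.42.0, a replicate block, only the groups compared, other pseudocounts, and leaving out each library.

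The members and gene lists were chosen with earlier results of these data known. The text names every member and the 2 called genes of each list with the largest change for each single ligand. Named too are the interleukin-1-induced genes that a single ligand lowered. For each tested member with a mean over 1 CPM, the 3 genes most like it are named. Gene positions are from GENCODE v44 and promoters from RefSeq, both on GRCh38.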

Additional observations from a re-analysis of the deposited data

Results flagged for a closer look

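For 4 pairs of effects, a ligand moved a gene one way without a second ligand and the other way with it. Pairs were listed only where both effects and their difference passed edgeR's quasi-likelihood test, so passing it was the rule of choice. EGF changed IL33 by 3.56 on the log2 scale without OSM and by -1.38 with it, a difference of -4.94 (adjusted p = 1.18e-06). IL33 also had to differ between groups to be tested. OSM changed IL1B by -0.67 without EGF and by 0.64 with it, a difference of 1.31 (adjusted p = 0.00412). That difference stayed called when any library was left out (adjusted p from 0.00111 to 0.017), while its components did not. The -0.67 was lost without PBS replicate 3 (adjusted p = 0.145), OSM replicate 1 (0.0909) or OSM replicate 2 (0.0744). The 0.64 (adjusted p = 0.0345) was lost without EGF replicate 1 (0.115), EGF replicate 2 (0.0938), EGF+OSM replicate 2 (0.0623), EGF+OSM replicate 3 (0.117) or the filter on low counts (0.0712). TGFB changed IL1R1 by -0.60 without EGF and by 0.88 with it, a difference of 1.48 (adjusted p = 6.79e-10). TGFB changed IL1R1 by -0.60 without OSM and by 0.40 with it, a difference of 1.00 (adjusted p = 9.35e-08). The cause of each was not tested.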

How the results depend on the processing

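Of 176 results (8 genes in 22 comparisons), 123 were called, and 109 of these kept their direction and call under every alternative. No called fold change reversed, and 28 values called in neither fit changed sign. IL1R1 kept 21 of 21 calls, IL1RAP 18 of 18, and IL1B 7 of 13, the lowest share. Of 44 counts of calls, 40 stayed within 1.5 times. The members called for PBS against T0 rose from 2 to 4 with a replicate block, and for the 3-way term from 1 to 2. The genes called for the 3-way term went from 607 to 1247 with the replicate block and 915 with DESeq2. Leaving out libraries moved the members called for the EGF+TGFB departure between 3 (without PBS replicate 2) and 5. The log2 ratio of IL1RN to IL1B with OSM+TGFB was 0.24, and ran from -0.059 to 0.49 when 1 library was left out. The log2 ratio of IL1R2 to IL1R1 moved with the counts added: with 1 count to -8.85 in T0 and -6.36 with EGF+TGFB, and with 3 counts to -8.42 in T0, -9.67 in PBS and -6.13 with EGF+TGFB. The cause of the changes was not tested, apart from the added counts, which weigh more where IL1R2 has few.

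The labels number replicates 1 to 3 in every group but do not say what a number shares. Same-numbered libraries of different groups had a median correlation of deviations of 0.13 over 108 pairs, 73 of them over 0.1, and 27 of 27 libraries correlated best with their own number, a hint from the data and not the design. The replicate block added 16 calls among the 176 results and removed none. Depth limits IL36G, IL36RN and the groups in which IL33 and IL1R2 have few counts.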
